A study of Mus musculus with 51 samples.

Results

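The 9 genes Cd3d, Cd3e, Cd3g, Cd247, Cd8a, Cd8b1, Lck, Zap70 and Lat encode the signalling chains of the T-cell receptor, its CD8 co-receptor and the kinases and adaptor that act first after it is engaged. They were chosen by gene symbol, and all 9 were present among the 10560 genes of the table of untreated samples and the 13458 genes of the table of samples under immune checkpoint blockade. The study isolated CD8+ T cells from mammary tumors of the mouse line AT3-OVA and from spleen by flow sorting, and profiled 51 libraries by QuantSeq 3' tag sequencing. Tumor cells were split by 2 surface proteins that mark tissue-resident memory T cells: double-positive cells (DP, CD103+CD69+), single-positive cells (SP, CD103-CD69+) and double-negative cells (DN, CD103-CD69-). Untreated tumors were sampled at weeks 1, 2, 4 and 6, with 3, 4, 3 and 3 DP libraries, 3, 3, 2 and 3 SP libraries and 2, 3, 3 and 2 DN libraries. Control spleens, also untreated, gave 3 libraries each of naive, central memory (CM) and effector memory (EM) cells. At day 40 of the blockade arm there were 3 DP, 3 SP and 2 DN libraries, and the labels name no antibody. The labels give no strain, sex or age, list AT3-OVA and a tumor-infiltrating cell type for the spleen samples as well, and do not say whether replicates were separate animals, so p-values measure only the spread between these libraries, which may be technical.

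The T-cell receptor has no enzyme of its own: its alpha and beta chains recognise peptide on MHC, and the CD3 and zeta chains carry the tyrosine motifs that pass the signal on. CD8, a dimer of alpha and beta chains, binds MHC class I and brings the kinase Lck to the receptor. Lck phosphorylates these motifs, Zap70 docks on the phosphorylated chains, and Zap70 then phosphorylates the membrane adaptor Lat, on which further signalling proteins assemble.

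Cd3d and Cd3g are neighbours on chromosome 9 and Cd247, the zeta chain gene, lies on chromosome 1; their promoters are shown because, in DP against DN cells of untreated tumors, Cd3g was called higher, Cd247 lower and Cd3d neither. In GENCODE M21 on GRCm38, the build named mm10 in the submitters' processing notes, Cd3d lies at chr9:44981786-44987339 on the plus strand and Cd3g at chr9:44969572-44980431 on the minus strand. Their first bases are 1355 bases apart and they are read away from each other. Cd3e lies beside them at chr9:44998740-45009627 on the minus strand, and Cd247 lies at chr1:165788681-165877277 on the plus strand. The sequences are the 250 bases before and 50 bases after the start from RefSeq on GRCm38.p6, each on the gene's own strand. Capitals mark AGGAAG, a core bound by ETS factors, or its reverse complement.
Cd3g promoter, chr9:44980382-44980681, minus strand: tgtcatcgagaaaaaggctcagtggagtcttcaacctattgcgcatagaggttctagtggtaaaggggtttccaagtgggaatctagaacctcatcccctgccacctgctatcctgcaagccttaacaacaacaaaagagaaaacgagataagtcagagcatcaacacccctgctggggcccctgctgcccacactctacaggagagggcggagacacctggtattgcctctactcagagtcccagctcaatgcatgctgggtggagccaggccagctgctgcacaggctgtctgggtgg
Cd3d promoter, chr9:44981536-44981835, plus strand: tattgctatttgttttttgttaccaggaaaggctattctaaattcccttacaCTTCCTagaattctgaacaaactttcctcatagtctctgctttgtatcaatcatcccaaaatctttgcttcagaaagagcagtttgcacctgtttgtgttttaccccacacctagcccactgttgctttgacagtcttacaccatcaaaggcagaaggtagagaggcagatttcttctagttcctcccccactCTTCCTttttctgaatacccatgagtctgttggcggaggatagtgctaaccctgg
Cd247 promoter, chr1:165788431-165788730, plus strand: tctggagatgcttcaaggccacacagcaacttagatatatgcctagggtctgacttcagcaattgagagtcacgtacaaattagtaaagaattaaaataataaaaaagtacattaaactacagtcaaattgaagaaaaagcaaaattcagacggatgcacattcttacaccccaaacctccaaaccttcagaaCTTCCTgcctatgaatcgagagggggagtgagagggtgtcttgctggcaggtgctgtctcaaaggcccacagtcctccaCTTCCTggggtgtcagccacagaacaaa

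Cd3d and Cd247 each held 2 matches and Cd3g held 0. AGGAAG was found on either strand in 8 of the 11 promoter entries of these genes and in 35.4% of 32851 promoters of the same length. TGTGGT, a core bound by RUNX factors, was found in 3 of the 11 and in 16.8% of all, in none of the 3 windows printed here, and did not overlap AGGAAG in any entry of these genes. A match is a description of letters, not of binding. RefSeq entries matched 8 of the 9 genes, all but Cd8b1.

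The deposited values are normalised and on a log scale, taken here as log2 (the base is an assumption that scales the sizes and leaves the tests as they are), and every value below is a level or a difference on that scale. In the untreated table a gene's level is not an abundance, since gene means ran from -28.0 to 39.4 and the housekeeping gene Gapdh stood at the 18.3 percentile, so only differences between libraries of 1 gene are read there. In the blockade table gene means also ran widely, from -21.2 to 20.7, with Gapdh at the 87.9 percentile. Percentiles there rank the deposited values and are not a measure of abundance or purity. The 9 genes lay between the 82.6 and 99.7 percentiles of the blockade table. Epithelial markers had a median percentile of 13.3 there and myeloid markers 24.7. The median was 34.5 for CD4 and regulatory T-cell markers and 12.4 for gamma-delta and NK markers. Single markers stood far above these medians: epithelial Cdh1 at 99.3, gamma-delta Tcrg-C2 at 96.7 and Ikzf2, of the CD4 and regulatory list, at 74.2. Both tables had fewer independent directions of variation than libraries allow (32 of 42, and 4 of 7), and the residual degrees of freedom in the tests were scaled down accordingly. Sequencing depth is not given in the tables. DN week 4 replicates 1 and 2 differed by a root mean square of only 0.040 over all genes, against at least 0.136 for any other pair of replicates, and counts to judge sampling noise were not used here; results with DN are given with the pair also counted as 1 library where that changed a call. The transcripts of the 2 sorted surface proteins followed the gates in part. Itgae, which encodes CD103, was higher in DP than in SP by 1.11 and than in DN by 2.82, and Cd69 was higher than in DN by 0.78 in DP and by 0.82 in SP (limma adjusted p from 2.8e-06 to 0.0316). Itgae was also higher in SP than in DN, by 1.71 in untreated tumors and by 2.11 under blockade, although both were sorted as CD103-, and under blockade Cd69 was not called against DN (0.27 in DP and -0.03 in SP).

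DP at week 1 had the lowest mean of the 15 untreated groups for 8 of the 9 genes. For Cd3d, Cd247 and Cd8b1 its libraries overlapped those of the next group. The share of all genes with their lowest mean in that group was not computed. Against SP at week 1, 11.5% of all genes were called lower in DP. For Cd8a, the co-receptor's alpha chain, the 3 levels were 8.36, 8.38 and 8.26 in DP at week 1, and the lowest library of any other group was at 9.26. Cd8a levels were 9.48, 9.56 and 9.60 in SP at week 1 and 10.25 and 10.50 in SP at week 4, the highest group. Within DP, all 10 libraries of weeks 2 to 6 lay at 9.61 or above. Lck, the kinase carried by CD8, had levels of 6.24, 6.24 and 6.30 in DP at week 1 against 6.62 to 7.34 over all other libraries.

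The genes parted in which group was highest. SP at week 4 had the highest mean for Cd3d, Cd3g, Cd8a and Zap70, and SP at week 6 for Cd3e. Naive spleen cells had the highest mean for Cd247 and Cd8b1, spleen CM cells for Lck and spleen EM cells for Lat. The span between the highest and lowest of the 15 group means was widest for Cd8a, 2.04, followed by Cd8b1 with 1.68, and smallest for Cd3d, 0.77. Most neighbours in these orders could not be separated: for Cd3g, ranges of adjacent groups overlapped in 13 of 14 steps, the exception being the step down to DP at week 1.

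**Figure D1:**
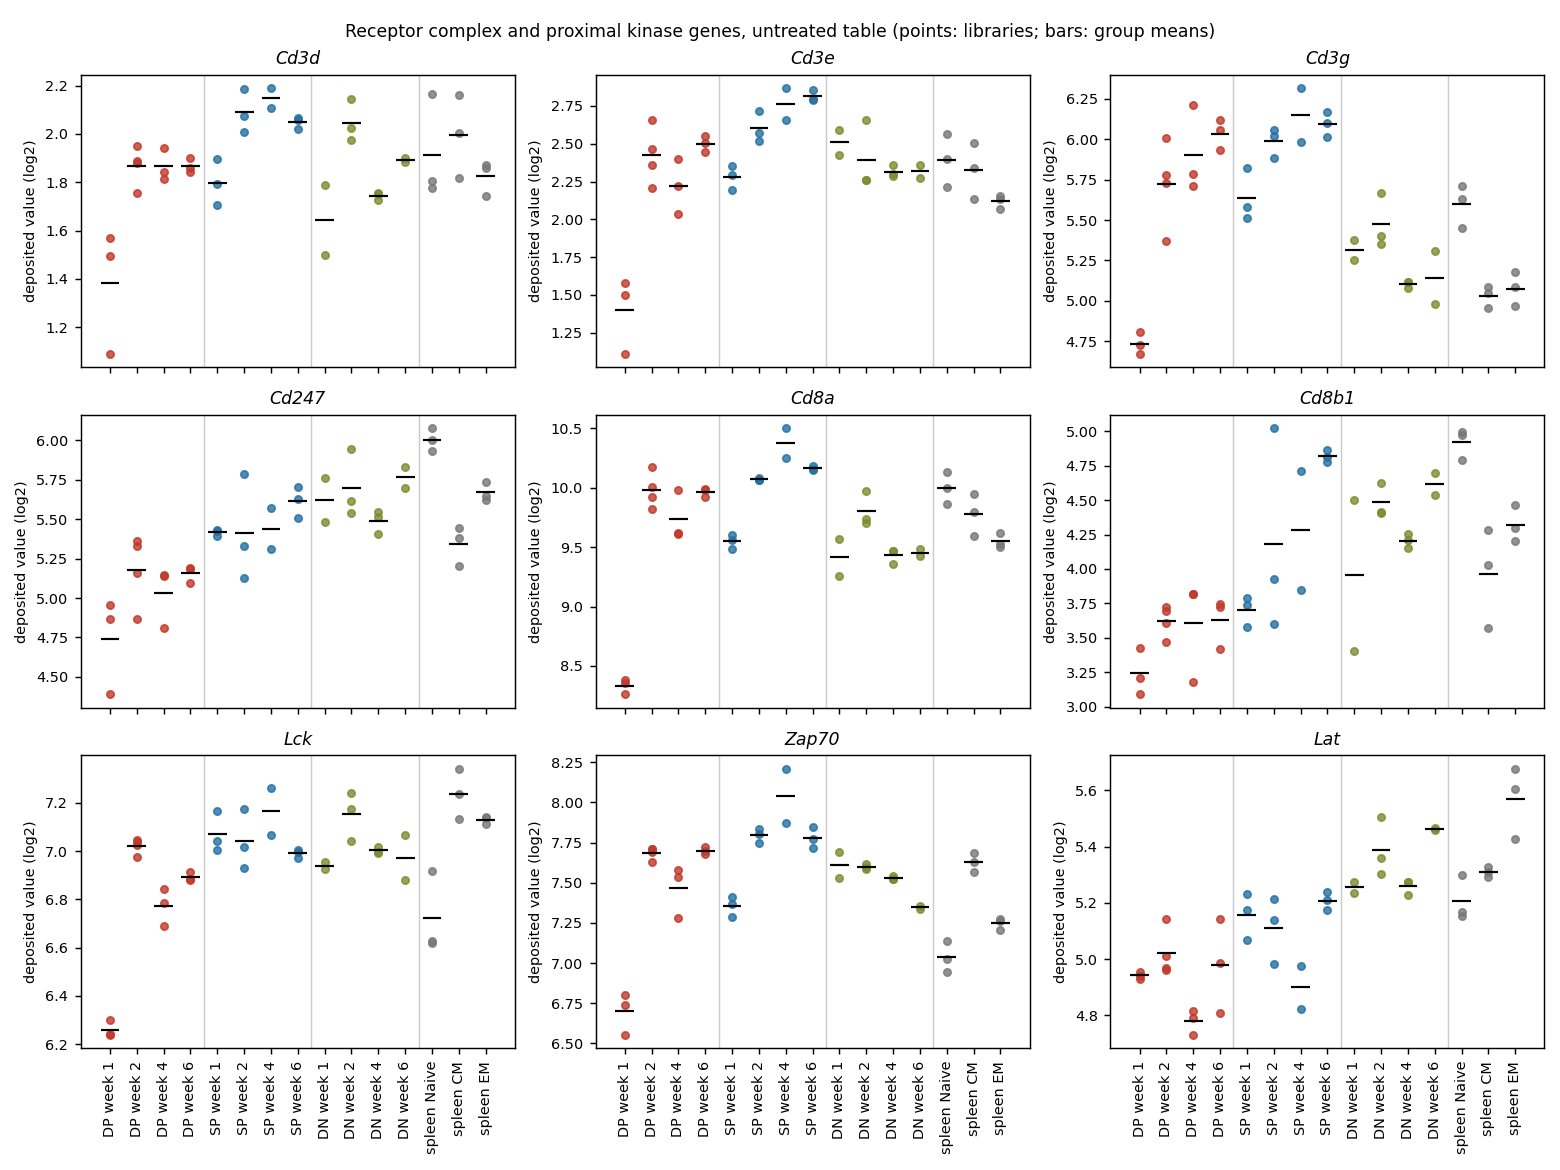
Deposited log2 values of the 9 genes in the 43 untreated libraries; the y axis of each panel is that gene's own level, points are libraries and bars are group means. DP at week 1 sits below all other groups for Cd8a and Lck, and Lat is lowest in DP at week 4.

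Comparing DP with SP cells asks what goes with CD103 among CD69+ tumor cells. With the 4 weeks weighted equally, 8 of the 9 genes were lower in DP than in SP and none was higher, where 3.48% of all genes tested were called (adjusted p under 0.05) and 2.72% called lower. The median difference of the 9 genes was -0.37, against -0.04 over all genes. In bulk libraries, fewer cells of a type and less RNA per cell cannot be told apart.

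Cd8b1, the co-receptor's beta chain, had the largest of these differences, -0.72 ± 0.16 (SE; adjusted p = 0.0122, limma, 13 against 11 libraries). It ranged from 3.09 to 3.82 (median 3.61) in DP and from 3.58 to 5.02 (median 3.92) in SP, so the ranges overlapped. Cd8a differed by -0.54 ± 0.07 (adjusted p = 0.000228), with levels from 8.26 to 10.17 (median 9.92) in DP and from 9.48 to 10.50 (median 10.08) in SP. Both chains of the co-receptor were thus lower in DP, although no gene of the 9 separated the subsets completely. Among the receptor's own signalling chains, Cd3e differed by -0.48 ± 0.08 (adjusted p = 0.00183), Cd247 by -0.44 ± 0.09 (adjusted p = 0.009), Cd3g by -0.37 ± 0.08 (adjusted p = 0.0132) and Cd3d by -0.28 ± 0.07 (adjusted p = 0.0335). The kinases Lck, -0.33 ± 0.05, and Zap70, -0.36 ± 0.05, were lower with adjusted p of 0.000999 and 0.00064. Lat, the adaptor, differed by -0.16 ± 0.05 and did not pass (adjusted p = 0.0921).

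The pooled calls depended on week 1. Without that week, 0 of the 9 genes and 44 of all genes were called, with a median of -0.25 for the 9. All 9 differences kept their sign there, the closest to the threshold being Cd8b1 at -0.81 (adjusted p = 0.0505) and Zap70 at -0.25 (adjusted p = 0.0565). The call of Cd3d was lost when any of 10 of the 24 libraries was left out, with adjusted p between 0.0195 and 0.0715 over all 24. At week 1 alone, 7 of the 9 genes were lower in DP, where 17.4% of all genes were called and 11.5% called lower. Cd8a differed by -1.22 ± 0.14 (adjusted p = 6.04e-06, limma), Cd3g by -0.90 ± 0.16 and Cd3e by -0.88 ± 0.16. For Cd3g the levels were 4.73, 4.81 and 4.67 in DP and 5.51, 5.58 and 5.82 in SP. All 9 genes had DP libraries below all SP libraries at week 1, as did 21.5% of all genes.

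At the later weeks the tests called 0 of the 9 genes at week 2, 1 at week 4 and 0 at week 6, but they called few genes of any kind (0, 15 and 0 of 10560, with 677, 1355 and 729 at an unadjusted p under 0.05). The 1 call was Zap70 at week 4, -0.57 ± 0.12 (limma adjusted p = 0.0494), with levels of 7.28, 7.54 and 7.58 in DP and 7.87 and 8.21 in SP; without SP week 4 replicate 2 the difference was -0.40 (adjusted p = 0.665). Cd8b1 at week 6 had 3.72, 3.75 and 3.42 in DP and 4.81, 4.86 and 4.78 in SP, a difference of -1.19 ± 0.31 (adjusted p = 0.283). The 2 sets of Cd8b1 libraries did not overlap at week 6, although the adjusted p missed the threshold. Cd8b1 was not alone in this. DP libraries lay below all SP libraries for 2 of the 9 genes at week 2, 8 at week 4 and 7 at week 6. The shares of all genes were 7.08%, 27.9% and 16.9%.

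Tested directly, the DP minus SP difference at week 1 was more negative than its mean over weeks 2 to 6 for Cd8a, Cd3g, Lck and Zap70, where 14.7% of all genes were called in either direction and 9.02% called lower. The change was -0.91 ± 0.16 for Cd8a (adjusted p = 0.000713, limma) and -0.64 ± 0.12 for Lck (adjusted p = 0.00117). For Cd8b1 it was 0.35 ± 0.36, of the opposite sign, and did not pass (adjusted p = 0.559).

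Markers of other cells differed between the same groups. Over the 5 of 8 listed epithelial markers that were measured, the mean of the centred levels per library was 2.23 to 3.46 in DP at week 1, 1.95 to 2.46 in SP at week 1 and -0.15 to 0.49 in DP at week 6. In the pooled DP against SP comparison 1 of the 5 was called, Cdh1, higher in DP. Cdh1 stood at the 99.3 percentile of the blockade table, unlike the epithelial median of 13.3 there. None of 9 measured myeloid markers (of 12 listed) was called, with a median of 0.47. Hba-a2, the 1 measured erythroid marker of 4, was lower in DP by a difference of -2.55. DP at week 1 also had the largest spread between replicates of the 15 groups, a median SD over genes of 0.29 against 0.17 in SP at week 1. The part of these values in the receptor-gene differences was not tested. No marker was listed at 0, as the table holds log values.

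**Figure D2:**
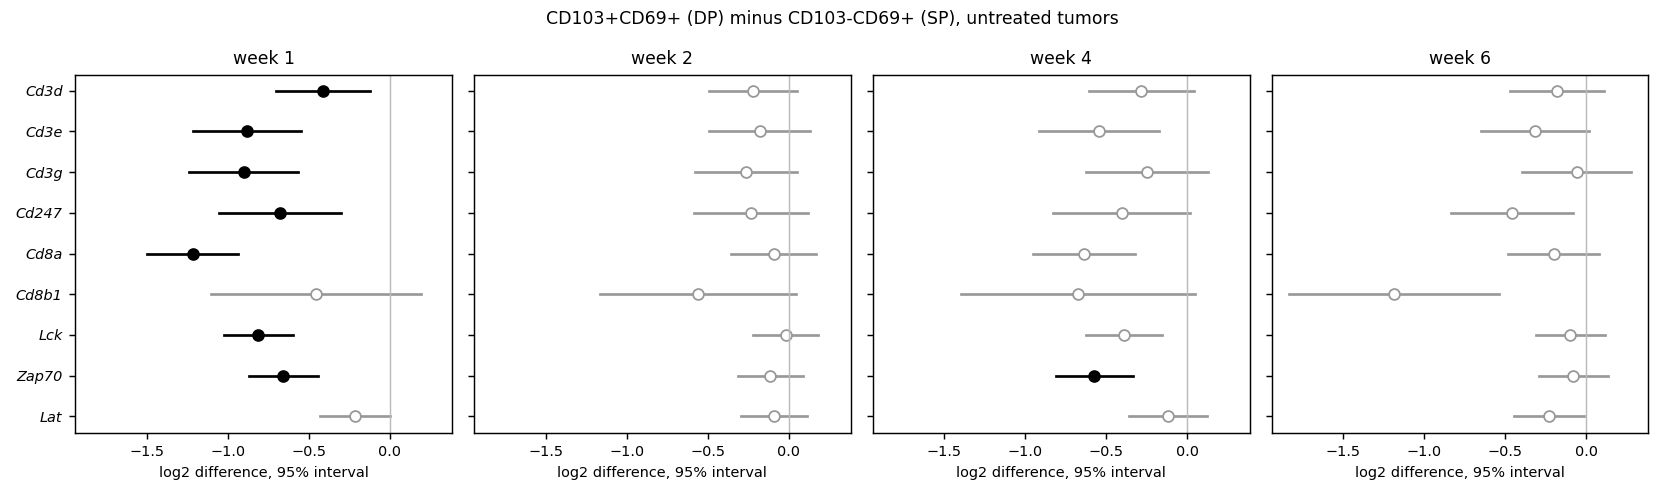
DP minus SP difference (log2, x axis) of each gene at each week of untreated tumors, with unadjusted 95% intervals; filled black points passed an adjusted p of 0.05. Week 1 has 7 filled points, all below 0, with Cd8a at -1.22, and week 4 has Zap70.

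The comparison with DN cells asks what goes with CD69, with or without CD103. Here the genes divided. Cd3g was higher in both CD69+ subsets, Lat was lower in both, and Cd247 was lower in DP.

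In DP against DN, 1 gene was called higher and 5 lower, where 19.5% of all genes were called (8.81% higher and 10.7% lower). The median of the 9 differences was -0.25, against -0.01 over all genes. Cd247, the zeta chain, ranged from 4.39 to 5.36 (median 5.14) in DP and from 5.41 to 5.94 (median 5.58) in DN, and the ranges did not overlap; the difference was -0.62 ± 0.10 (adjusted p = 0.000106, limma). Lat ranged from 4.73 to 5.14 in DP and from 5.23 to 5.51 in DN, again apart, with a difference of -0.41 ± 0.05 (adjusted p = 2.37e-05). Of all genes, 0.464% were lower in every DP library than in any DN library. Cd8b1, -0.79 ± 0.16 (adjusted p = 0.00171), Lck, -0.28 ± 0.05 (adjusted p = 0.000843), and Cd3e, -0.25 ± 0.08 (adjusted p = 0.0401), were also lower. Cd3g, which encodes the CD3 gamma chain, was higher by 0.34 ± 0.08 (limma adjusted p = 0.00732).

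Week 1 weighed on this comparison too. Cd3g levels in that week were 4.73, 4.81 and 4.67 in DP and 5.25 and 5.38 in DN, the reverse of the pooled direction. DP was not tested against DN within week 1. Without it, Cd8a changed from a difference of -0.02 ± 0.07 to 0.33 with a call (adjusted p = 0.00494), Cd3e went from -0.25 to 0.04, Cd3g was higher by 0.65, and Cd247, Cd8b1 and Lat were lower by differences of -0.53, -0.82 and -0.44 and still called. The call of Cd3e was lost without any of 14 of the 23 libraries, and with the close pair of DN week 4 libraries as 1 (adjusted p = 0.0529).

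In SP against DN, 3 genes were higher and 1 lower, where 19.4% of all genes were called (11% higher and 8.32% lower). The median of the 9 was 0.19, against 0.03 over all genes. Cd3g was higher by 0.71 ± 0.09 (adjusted p = 1.52e-05, limma), Cd8a by 0.51 ± 0.07 (adjusted p = 6.17e-05) and Zap70 by 0.22 ± 0.06 (adjusted p = 0.0093). Lat differed by -0.25 ± 0.06 (adjusted p = 0.00453). Cd247 differed by -0.17 (95% interval -0.38 to 0.03) and Lck by 0.05 (95% interval -0.07 to 0.17), neither of which passed.

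All 10 DN libraries had library codes of 46 or more in the labels, while 11 of 13 DP and 10 of 11 SP libraries had lower codes. The split at that code was chosen here. The labels name no batch, and the codes have other gaps. A term for the split rests on the few DP and SP libraries with the higher codes. With that split as a term, DP against DN kept 1 call among the 9, Lat at -0.52 (adjusted p = 0.00415), and SP against DN kept 2, Cd3g at 0.75 (adjusted p = 0.0197) and Cd8a at 0.58 (adjusted p = 0.0269). Over all genes that fit made 259 and 174 calls. Against DN, myeloid markers were higher in DP for 4 of 9 and in SP for 1 of 9, and epithelial markers for 2 of 5 in each. Of 3 measured CD4 and regulatory T-cell markers (of 4 listed), cells that carry the CD3 chains too, 2 were higher in each subset (medians of 1.12 in DP and 0.70 in SP), and of 2 measured gamma-delta and NK markers (of 9 listed) 1 was higher in DP; the part of all these markers was not tested.

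Under immune checkpoint blockade, in a table normalised apart and with other libraries, DP and SP again differed from DN in Cd3g, and DP in Cd247. Cd3g levels were 14.44, 14.47 and 14.57 in DP, 14.57, 14.55 and 14.41 in SP, and 13.68 and 13.66 in DN. Both CD69+ subsets lay above DN without overlap, by 0.82 ± 0.09 in DP (adjusted p = 0.0137, limma) and 0.84 ± 0.09 in SP (adjusted p = 0.0183). Cd247 levels were 10.55, 10.56 and 10.57 in DP, 10.80, 10.76 and 10.80 in SP, and 11.14 and 11.12 in DN, 3 separate sets with DP lowest. Such separation was common in this table. In DP against DN, 37.5% of all genes lay wholly higher and 35.6% wholly lower. The shares were 35.3% and 26.7% in SP against DN, and 21.5% lay wholly lower in DP against SP. The difference of Cd247 from DN was -0.57 ± 0.07 in DP (limma adjusted p = 0.0204) and -0.35 ± 0.07 in SP (adjusted p = 0.0777).

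These were the 2 calls among the 9 genes in DP against DN, where 7.49% of all genes were called. In SP against DN, where 3.83% were called, Cd8a was higher by 0.72 ± 0.10 (limma adjusted p = 0.0338), with levels of 15.59, 15.75 and 15.46 against 14.86 and 14.91, and Cd3e by 0.43 ± 0.07 (adjusted p = 0.0389). The call of Cd3e was lost when either DN library was left out (adjusted p of 0.105 and 0.0784), and Cd8a in DP against DN, 0.48 ± 0.10 (adjusted p = 0.0577), was called when any 1 of the 3 DP libraries was left out. Lck differed by 0.03 (95% interval -0.20 to 0.26) in DP and by 0.02 (95% interval -0.21 to 0.25) in SP. Fitting the blockade table without a trend of variance on level gave 0 calls among all genes in both comparisons.

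Between DP and SP under blockade, 0 of the 9 genes and 5 of all genes (0.0372%) were called, while 3 of the 9 and 1733 of all genes had an unadjusted p under 0.05. The median of the 9 was -0.15, against -0.02 over all genes. Lat had levels of 12.87, 12.88 and 12.89 in DP and 12.65, 12.50 and 12.71 in SP, a difference of 0.26 ± 0.08 (adjusted p = 0.321). Lat in DP was therefore above SP in this table and below it in the untreated one (-0.16), with neither difference past the threshold and no test across the 2 tables. Of 11 measured myeloid markers (of 12 listed), 8 were higher in DP than in DN under blockade and 0 in SP than in DN; their mean per library was 0.80 to 1.04 in DP, -0.44 to 0.10 in SP and -1.12 to -1.08 in DN, and their part was not tested.

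**Figure D3:**
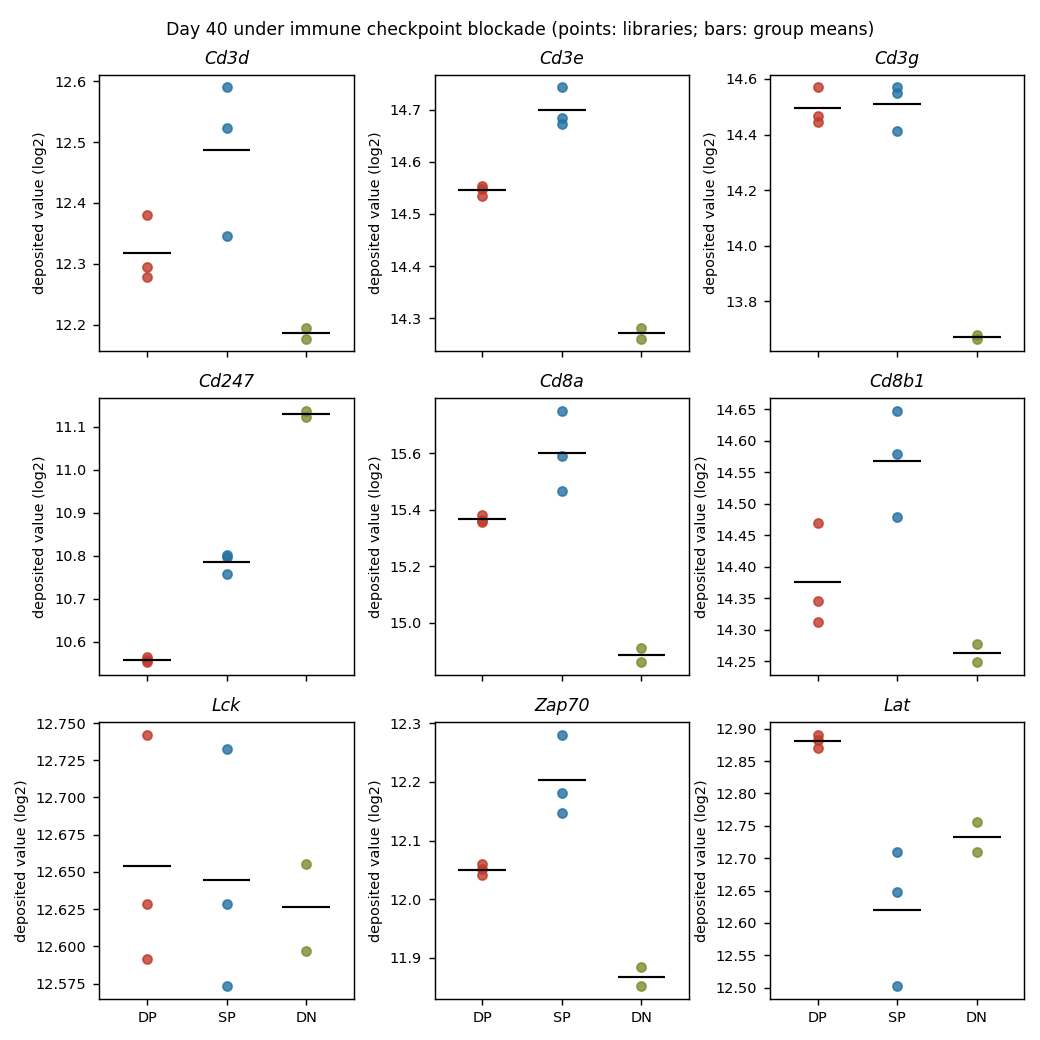
Deposited log2 values of the 9 genes in the 8 libraries of day 40 under immune checkpoint blockade; points are libraries, bars are group means and each y axis is that gene's own level. For Cd3g the DN libraries, 13.68 and 13.66, lie below all others, and for Cd247 they lie above all others.

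**Figure D4:**
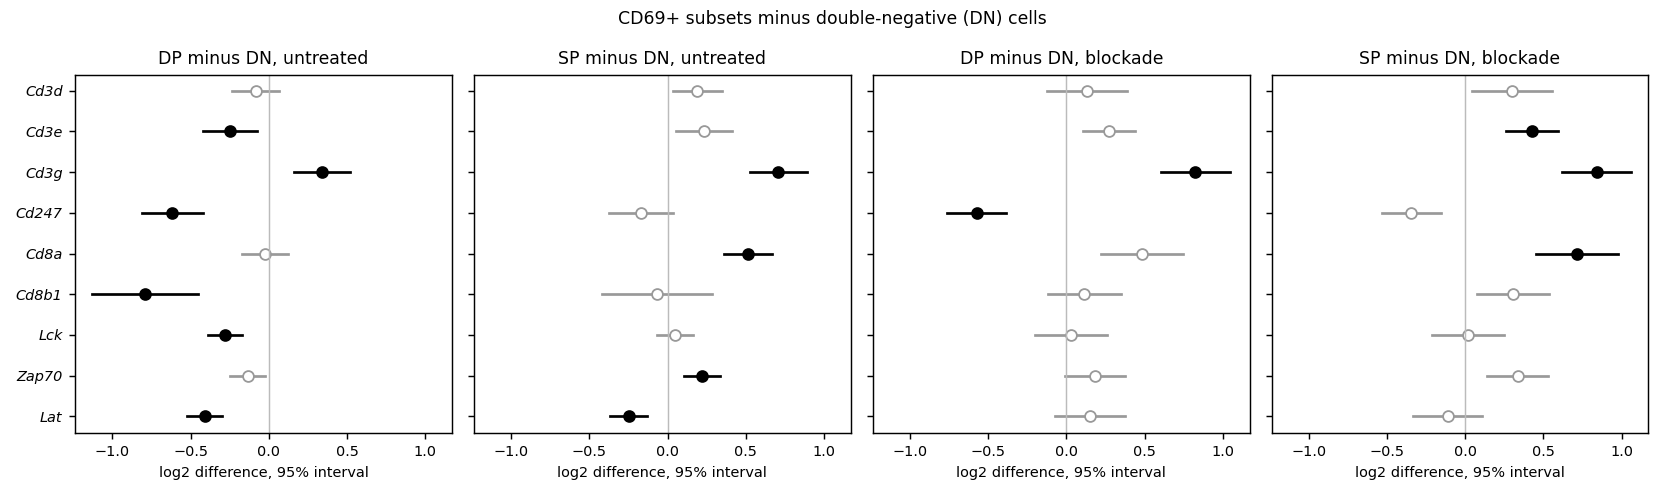
Differences of DP and SP from DN (log2, x axis) in the untreated table and in the blockade table, with unadjusted 95% intervals; filled black points passed an adjusted p of 0.05. Cd3g lies above 0 in all 4 panels and Cd247 below 0 in all 4, with Cd247 passing in the DP panels.

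Comparing week 6 with week 1 within each subset asks how the genes changed as tumors aged. In DP, 6 of the 9 genes rose, where 25% of all genes were called and 15.6% called higher, and the median of the 9 was 0.63 against 0.07 over all genes. Cd8a rose by 1.63 ± 0.14 (adjusted p = 5.53e-08, limma), from 8.36, 8.38 and 8.26 to 9.98, 9.99 and 9.92. Cd3g rose by 1.30 ± 0.16 (adjusted p = 9.29e-06) and Cd3e by 1.10 ± 0.16 (adjusted p = 4.28e-05). Zap70, the kinase that docks on the phosphorylated chains, rose by 1.00 ± 0.10 (adjusted p = 1.2e-06), from 6.74, 6.55 and 6.80 to 7.68, 7.72 and 7.70. Lck rose by 0.63 ± 0.10 and Cd3d by 0.48 ± 0.14, the latter without a call when DP week 1 replicate 1 was left out (0.34, adjusted p = 0.0866). Cd247, 0.42 ± 0.18 (adjusted p = 0.0972), Cd8b1, 0.39 ± 0.31, and Lat, 0.04 ± 0.10, did not pass.

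Against week 2 instead, an alternative chosen after seeing the data, 0 of the 9 genes were called at week 6, as were only 26 of all 10560 genes, with Cd8a at -0.02, Zap70 at 0.01 and Cd3g at 0.31 (adjusted p of 0.977, 0.972 and 0.379). Between week 1 and week 6, 4 of 5 epithelial markers fell in DP, with a median of -2.62, and the part of that shift in the rise was not tested.

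In SP, Cd8a rose by 0.62 ± 0.14 (limma adjusted p = 0.0161) and Zap70 by 0.42 ± 0.10 (adjusted p = 0.0297), where 2.72% of all genes were called. Of the 5 epithelial markers, 3 were lower in SP at week 6, with a median of -2.45. Cd8b1 went from 3.74, 3.79 and 3.58 to 4.81, 4.86 and 4.78, a difference of 1.12 ± 0.31 that missed the threshold (adjusted p = 0.0558). The SP calls were not stable: leaving out any 1 of the 6 libraries left 0 or 1 of the 2. In DN, 0 of the 9 genes were called (limma), where 5.79% of all genes were, and 0 of the 9 had an unadjusted p under 0.05. DN epithelial markers went the other way, with 4 of 5 higher at week 6, a median of 3.70, and a mean per library from -1.56 to -1.06 at week 1 and from 1.65 to 1.81 at week 6.

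The change in DP exceeded that in DN in a direct test for Cd3e, Cd3g, Cd8a, Lck and Zap70, where 18.1% of all genes were called and 7.89% called higher. The excess was 1.59 ± 0.21 for Cd8a (adjusted p = 4.5e-05, limma), 1.47 ± 0.26 for Cd3g (adjusted p = 0.000557), 1.29 ± 0.25 for Cd3e (adjusted p = 0.00139), 1.26 ± 0.16 for Zap70 (adjusted p = 3.34e-05) and 0.60 ± 0.16 for Lck (adjusted p = 0.0129). The call of Lck was lost without DN week 1 replicate 1 or DN week 6 replicate 1 (adjusted p of 0.0504 and 0.0704).

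**Figure D5:**
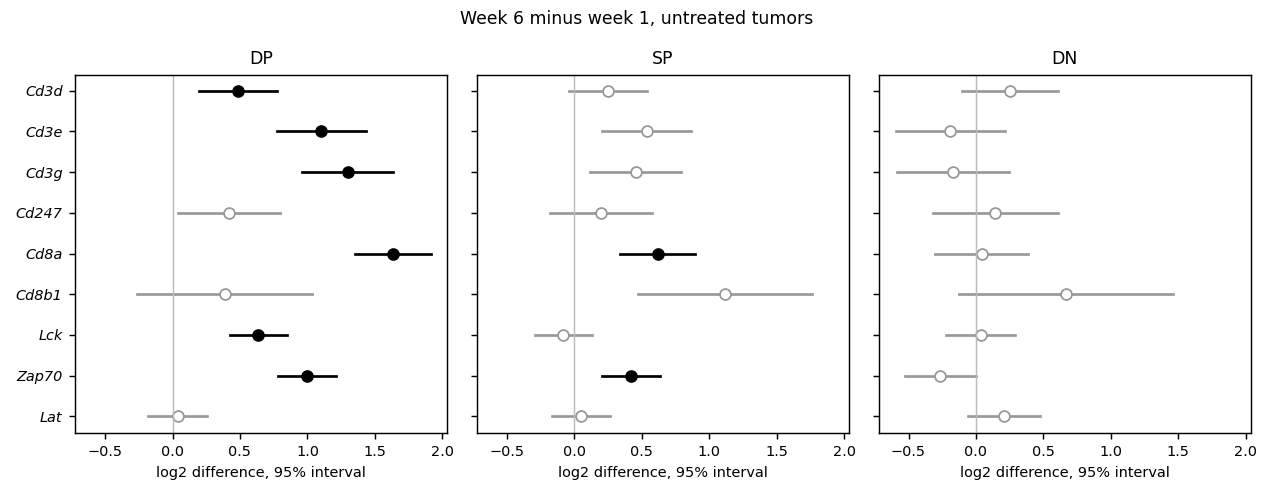
Week 6 minus week 1 difference (log2, x axis) of each gene in DP, SP and DN cells of untreated tumors, with unadjusted 95% intervals; filled black points passed an adjusted p of 0.05. The DP panel has 6 filled points up to 1.63 for Cd8a, the SP panel 2 and the DN panel none.

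Among spleen cells, memory subsets had lower Cd3g and higher Lck transcript levels than naive cells, with Cd3g calls that hung on single libraries. In CM against naive, where 18.8% of all genes were called, Cd3g, Cd247 and Cd8b1 were lower and Lck and Zap70 higher. The Cd3g difference was -0.57 ± 0.16 (limma adjusted p = 0.0175), and its call was lost without any 1 of 3 of the 6 libraries (adjusted p up to 0.0587). Zap70 levels were 7.57, 7.63 and 7.68 in CM, 7.26, 7.20 and 7.27 in EM, and 7.03, 7.14 and 6.95 in naive cells, and the 3 sets did not overlap. Of all genes, 25.4% lay wholly above naive cells in CM and 24.2% in EM. The CM difference of Zap70 was 0.59 ± 0.10 (limma adjusted p = 0.000377), and its EM difference of 0.21 ± 0.10 did not pass (adjusted p = 0.149). Cd247 was lower in CM by a difference of -0.66 ± 0.18 (adjusted p = 0.0139) and Cd8b1 by -0.96 ± 0.31 (adjusted p = 0.0358). The Cd8b1 call was lost without any 1 of 5 of the 6 libraries, and the Cd247 call without any 1 of 2.

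In EM against naive, where 24.6% of all genes were called, Lck was higher by 0.41 ± 0.10 (limma adjusted p = 0.00533) and Lat by 0.36 ± 0.10 (adjusted p = 0.0143). Lat levels were 5.60, 5.43 and 5.68 in EM and 5.17, 5.30 and 5.15 in naive cells. Cd3g, -0.52 ± 0.16 (adjusted p = 0.0229), and Cd8a, -0.45 ± 0.14 (adjusted p = 0.0186), were lower. The calls of Cd3g, Cd8a and Lat were each lost without any 1 of 4 of the 6 libraries (limma adjusted p up to 0.0694, 0.0687 and 0.0787). The Lck call was kept throughout. Fitted on the compared spleen groups alone, all 4 EM calls were lost. CM and EM were compared with the same naive libraries. Among markers of other lymphocytes, 2 of 3 CD4 and regulatory T-cell markers were higher than in naive cells in EM and in CM, the third, Foxp3, being lower in CM, and of 2 measured gamma-delta and NK markers both were higher in CM and 1 in EM; their part was not tested.

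Tumor subsets at weeks 2 to 6 were set against spleen EM cells, the same 3 EM libraries serving each. In SP, where 30.3% of all genes were called, Cd3g was higher by 1.00 ± 0.13 (limma adjusted p = 1.48e-05), Cd8a by 0.66 ± 0.11, Zap70 by 0.63 ± 0.09 and Cd3e by 0.61 ± 0.13, while Lat differed by -0.50 ± 0.09 (adjusted p = 0.000227). In DP, where 29.2% were called, Cd3g, 0.81 ± 0.13, Zap70, 0.37 ± 0.08, and Cd8a, 0.35 ± 0.11, were higher. Lat, -0.64 ± 0.08, Cd8b1, -0.70 ± 0.25, Cd247, -0.55 ± 0.15, and Lck, -0.23 ± 0.08, were lower in DP. The DP calls of Cd8a, Cd8b1 and Lck were each lost without 1 of several single libraries, among them spleen EM replicate 1. Lat ranged from 4.73 to 5.14 in those DP libraries and lay at 5.43 to 5.68 in EM, without overlap. Of all genes, 13.9% were lower in all of those DP libraries than in any EM library.

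The Cd8a difference of DP changed sign to -0.05 when week 1 was included. In DN, where 19.5% of all genes were called, Zap70 alone was higher, by 0.25 ± 0.09 (limma adjusted p = 0.049), and that call was lost when any of the 11 libraries was left out, with adjusted p between 0.0551 and 0.133. Every tumor subset also had all 5 measured epithelial markers higher and 3 of 4 B-cell markers lower than spleen EM, where the epithelial mean per library was -3.07 to -2.97; their part was not tested.

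Further genes of the pathway, 59 in a list of receptor chains, co-receptors, proximal kinases and adaptors, negative regulators and transcriptional outputs, were all measured in both tables. In DP against SP, 0 of the 59 were higher and 22 lower, where 2.72% of all genes were lower, with a median of -0.23 against -0.04 over all genes. Trbc1 and Trbc2, the constant regions of the receptor's beta chain, were lower by differences of -0.45 ± 0.07 and -0.51 ± 0.09, and Trac, the alpha chain, differed by -0.55 ± 0.17 without passing (adjusted p = 0.0832). The lowest of the called genes were Sh2d1a, which encodes the adaptor SAP, at -1.30 ± 0.28, Nr4a2, a transcription factor induced by receptor signals, at -0.96 ± 0.23, and Ubash3a, a phosphatase-family inhibitor of receptor signalling, at -0.68 ± 0.14. At week 1 the counts were 1 higher and 35 lower, where 17.4% of all genes were called and 11.5% were lower. At weeks 2, 4 and 6 none of the 59 was called, where 0%, 0.142% and 0% of all genes were.

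Against DN, most calls among the transcriptional outputs of the pathway were higher. In SP, where 11% of all genes were higher and 8.32% lower, 9 of 13 outputs were higher and 1 lower, with Egr3 at 1.45 ± 0.17 and Nr4a2 at 1.28 ± 0.24. Of the 20 kinases and adaptors, 3 were higher and 2 lower in SP. In DP, where 8.81% were higher and 10.7% lower, 6 of 13 outputs were higher and 3 lower, and 2 of the 20 kinases and adaptors were higher and 9 lower. Dgka, the diacylglycerol kinase that limits signals downstream of Lat, was lower than in DN in every such comparison: by differences of -0.99 ± 0.10 in DP and -0.92 ± 0.11 in SP of untreated tumors, and of -1.29 ± 0.08 and -1.14 ± 0.08 under blockade (all called). Under blockade the list had 6 genes higher and 6 lower in DP against DN (7.49% of all genes called), 4 and 1 in SP against DN (3.83%), and 0 in DP against SP (0.0372%). Il2ra, the alpha chain of the interleukin-2 receptor, was higher by 2.22 ± 0.19 in DP and 1.80 ± 0.19 in SP there. Cd69 is on the list as an output and its protein was also a sort marker.

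Over time in DP, 34 of the 59 were higher at week 6 than at week 1 and 3 lower, where 15.6% and 9.37% of all genes were, with Nr4a2 up by 2.16 ± 0.45 and Nck2, an adaptor, lower by a difference of -2.01 ± 0.28. These counts rest on the 3 DP libraries of week 1, and epithelial markers fell between the same weeks. Mean centred levels of the outputs were -0.52, 0.50 and 0.10 in DP at weeks 1, 2 and 6. For kinases and adaptors they were -0.51, -0.05 and -0.03. In SP the counts were 4 and 3, where 1.34% and 1.37% of all genes were higher and lower, and in DN 1 and 4, where 4.98% and 0.805% were. In spleen, 15 were higher and 5 lower in EM than in naive cells, where 12.6% and 12% of all genes were, and 13 and 6 in CM, where 10.1% and 8.7% were.

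The 9 genes did not form a single pattern across the 15 untreated group means. Over these 15 points, which share the normalisation and rest on 2 to 4 libraries each, Pearson's r was 0.91 between Cd3d and Cd8a, 0.91 between Cd3e and Cd8a and 0.90 between Cd247 and Cd8b1. It was 0.04 between Cd3g and Cd247 and -0.50 between Cd3g and Lat. Of 10551 other genes, those whose group means were most like the mean of the 9 were Ubash3a (r = 0.94), Rapgef1 (0.93), Mrs2 (0.92), Lcp2 (0.91) and Prdm4 (0.90). The mean centred level of the 9 was -0.76 in DP at week 1 and from -0.13 to 0.33 in the other groups. DP at week 1, with 3 libraries, can therefore carry much of such r values, and r without it was not computed.

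Overlapping genes may share reads with some of these genes, since the strand setting of the counting is not given in the sources used here. Cd247 overlaps 6 annotated genes, among them Pou2f1 on the other strand, Cd3e overlaps 2, and Lck, Zap70 and Lat overlap 1 each. Cd3d, Cd3g, Cd8a at chr6:71373427-71379173 and Cd8b1 at chr6:71322788-71337494, both on the plus strand, overlap none. Lck lies at chr4:129548344-129573641 on the minus strand, Zap70 at chr1:36761798-36782818 on the plus strand and Lat at chr7:126363824-126369570 on the minus strand.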

How the data were processed

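Sorted mouse CD8+ T cells were profiled from 10 ng of total RNA with QuantSeq 3' mRNA-Seq FWD on a NextSeq500, per the labels' protocols. The submitters' processing notes list HISAT2, HTSeq and mm10, with no version, and the normalisation method is not given in the sources used here. The values deposited by the authors are normalised log values (they fall below 0), read as log2 although the sources used here give no base. No counts or depths were used, so precision rests on the replicates. Groups came from the labels. Each table was fitted whole with limma 3.58.1 in R 4.3.3 (group means, trended and robust prior, no filter). Because residuals had rank 18 of 28 (untreated) and 2 of 5 (blockade), residual degrees of freedom and variances were rescaled by 0.643 and 0.4. Adjusted p-values are Benjamini-Hochberg over all genes, called under 0.05. Pooled weeks were weighted equally. The fit was also run on simulated data with the same loss of rank and an equal spread in all groups. That run cannot check the tests where spread differs between groups, as it did here. The 9 genes were named by symbol; of the pathway list, up to 3 lowest and 3 highest calls per comparison, and the 5 genes most like the 9, could be named, and other genes (receptor chains, markers, sort antigens) were named after their values were seen. The genes and lists were chosen with earlier results of these data known. Promoters were read from RefSeq on GRCm38.p6 and positions from GENCODE M21. Alternatives were unreduced degrees of freedom, quantile normalisation, median rescaling, genes with a mean above 0, no variance trend, a replicate block, only the groups compared, each library left out, other weeks, and the library code as a term.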

Additional observations from a re-analysis of the deposited data

Results flagged for a closer look

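Differences that themselves differed between groups were picked out for 9 results, all from interaction terms in limma over all genes. The DP minus SP difference at week 1 lay below its mean over weeks 2 to 6 by a change of -0.71 for Cd3g, -0.91 for Cd8a, -0.64 for Lck and -0.40 for Zap70. The week 6 minus week 1 change in DP exceeded that in DN by 1.29 for Cd3e, 1.47 for Cd3g, 1.59 for Cd8a, 0.60 for Lck and 1.26 for Zap70. All 9 use the 3 DP libraries of week 1, so they are not independent of each other. DP week 2, with 4 libraries, was the only group large enough to look for a library far from the others, and none of the 9 genes had one there.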

How the results depend on the processing

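The members' counts were recomputed under each alternative. Calls among the 9 genes moved by over 1.5 times in these cases. Without week 1, DP against SP gave 0. With the library code as a term, DP against DN gave 1 and SP against DN 2. With unreduced degrees of freedom, DP against SP under blockade gave 6, DP against DN under blockade 5, SP against DN under blockade 7, SP week 6 against week 1 5 and DN against spleen EM 2. Without a variance trend, both blockade comparisons with DN gave 0. With only the groups compared, blockade DP against DN gave 4, and spleen EM against naive and DN against spleen EM gave 0. Quantile normalisation left 1 call in blockade SP against DN. DN against spleen EM also gave 0 with genes of mean above 0, median rescaling, the replicate block and the close DN pair as 1 library. Week 6 against week 2 gave 0 in DP and in SP.

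Signs turned, with a call on one side, for Cd3e (0.038) and Cd8a (0.33) in DP against DN without week 1, for Cd8a in DP against spleen EM with weeks 1 to 6 (-0.045), and at week 6 against week 2 for Cd3d (-0.0010), Cd8a (-0.016) and Lck (-0.13) in DP and Zap70 (-0.018) in SP. The cause was not tested.

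With 1 library left out, the calls ranged from 6 to 8 for DP against SP, 5 to 6 for DP against DN, 4 to 5 for SP against DN, 5 to 6 for DP, 0 to 1 for SP and 0 to 0 for DN at week 6 against week 1, 2 to 5 for spleen CM and 1 to 3 for spleen EM against naive, 4 to 7, 5 to 5 and 0 to 0 for DP, SP and DN against spleen EM, and 2 to 4 and 2 to 5 for DP and SP against DN under blockade. They ranged from 2 to 5 for the DP minus SP difference at week 1 against later weeks, from 4 to 5 for DP minus DN at week 6 against week 1, from 6 to 7 for DP against SP at week 1 and from 0 to 2 at week 4.

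Replicate numbers were not taken as pairing, since not every pair of same-numbered libraries had deviations correlated above 0.1: 9 of 39 untreated and 4 of 7 blockade pairs did. That rule cannot show that libraries were unpaired, and the main fits leave any pairing out. At weeks 1, 2 and 6 and under blockade, most DP and SP libraries of the same replicate number had consecutive library codes. Shared handling of such libraries is therefore possible, but the labels do not state it. Libraries with consecutive codes did not always share a replicate number, as in spleen, in DP and SP at week 4, and in SP and DN under blockade. Pairing by code was not tested, and the replicate block follows the number. The 11 untreated DP and SP pairs were all positive, from 0.0097 to 0.86. Under blockade the DP and SP pairs of replicates 1, 2 and 3 were at -0.99, 0.36 and -0.61. In all, 23 of 42 untreated and 3 of 8 blockade libraries correlated best with their own number. These correlations are a hint from the data and not from the design. With the replicate block, the calls among all genes in DP against SP went from 368 to 327, and under blockade from 5 to 628; among the 9 genes, DN against spleen EM went from 1 to 0, DP against spleen EM from 7 to 6 and blockade DP against DN from 2 to 3. Depth is unknown, so no limit of detection can be given.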
